A study of Rattus norvegicus with 16 samples.

Results

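Oxidative phosphorylation is the chain of mitochondrial protein complexes that oxidises NADH and succinate, passes the electrons to oxygen and uses the resulting proton gradient to make ATP. Its members were taken as the array features with a single gene symbol beginning Nduf, Uqcr, Atp5 or Cox4 to Cox8, or equal to Sdha, Sdhb, Sdhc, Sdhd or Cycs, with one feature per symbol. This gave 93 of the 20667 distinct symbols on the array. Of these, 77 encode subunits: 36 of complex I, 4 of complex II, 8 of complex III, cytochrome c, 16 of complex IV and 12 of complex V. The other members were 6 assembly factors of complex I, 8 near-copies or pseudogenes, and Atp5s and Atp5sl. A further 11 features naming a member symbol beside other symbols were left out, and the subunits encoded by mitochondrial DNA do not fall under the symbol rule.

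Gene expression had been measured on 16 Clariom S arrays, with RNA from cells sorted from male Lewis rats, 2 arrays for each of 8 groups. The groups were 4 populations from the thymus and the same 4 from the spleen, all sorted as live CD45+ cells, and no treatment was named in the labels. CD103- cells were the MHCII+ CD103- CD45R- CD172a+ gate, titled DC-like. Macrophages were CD45R- cells that bound HIS36, an antibody to rat Cd163, with no gate on MHC class II in the source name. Type 2 conventional dendritic cells (cDC2) were MHCII+ and positive for both CD103 and CD172a, and type 1 cells (cDC1) were MHCII+ CD103+ without CD172a. Spleen dendritic cells (DCs) came through a density gradient, thymus DCs through MHC class II beads and macrophages through CD11b/c beads, so that isolation cannot be told apart from cell type in comparisons with macrophages or from organ in DCs. The labels did not say whether replicates were separate animals, and p-values therefore measure only the spread between these arrays.

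Values are the deposited log2 signals, in which 1 unit is a 2-fold difference. Array medians lay between 5.87 and 5.95, and the root mean square difference within replicate pairs was 0.37 to 0.46. Background was set at 5.79, the 95th percentile of 1158 olfactory receptor features. Among the sort markers, Itgae, which encodes CD103, averaged 6.02 in thymus CD103- cells and 13.66 in thymus cDC2. Cd163 was 8.46 higher in thymus macrophages than in the mean of thymus cDC1 and cDC2. It averaged 11.34 in thymus cDC2 and 4.87 in thymus cDC1. Xcr1 and Clec9a were highest in cDC1 but not confined to them. They averaged 10.3 and 8.2 in thymus macrophages, 11.5 and 10.6 in spleen macrophages, and 9.3 and 9.5 in spleen cDC2. Calls were made where the adjusted p of limma's moderated test was under 0.05, with Benjamini-Hochberg adjustment over all 23188 features. Differences carry the standard error (SE) of the fit.

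Complex I takes electrons from NADH and complex II from succinate. Complex III hands them to cytochrome c, complex IV reduces oxygen, and complex V is the ATP synthase. Most subunits are encoded in the nucleus by genes scattered over many chromosomes, and the transcription factors NRF1, GABP, YY1 and the oestrogen-related receptors are known in mammals to act on many of their promoters. Macrophages activated by bacterial products are known to lower their respiration in favour of glycolysis, while tissue-resident macrophages and alternatively activated ones rely on respiration.

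Since most subunits moved together, promoter windows from RefSeq (GRCr8, 250 bases before to 50 bases after the start) were searched on both strands, and 68 of the 77 subunits had a window. The YY1 motif AAGATGGC stood in 15 of the 68 windows (22.06%), in 5.61% of the 9428 windows of genes above background here and in 3.44% of all 27457 windows. The stretches below, of 30 bases each, show it in subunits of 5 complexes, among them Ndufs7, Ndufb8 and Atp5o, whose macrophage differences are described further on. Capitals mark the motif, and the number gives the position of its first base from the start.
Ndufs7 (complex I, GRCr8 chr7:10110476-10110505, minus strand, 5): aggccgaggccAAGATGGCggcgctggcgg
Ndufb8 (complex I, GRCr8 chr1:253362897-253362926, minus strand, 22): cggagaaggtgAAGATGGCggcgtcccggg
Ndufs6 (complex I, GRCr8 chr1:31797412-31797441, plus strand, 24): gggtcgtcggcAAGATGGCggcggcgctga
Sdhc (complex II, GRCr8 chr13:86098004-86098033, minus strand, 4): ggccggaactcAAGATGGCtgcgctcttgc
Uqcrc1 (complex III, GRCr8 chr8:118468211-118468240, plus strand, -1): acggaagttagAAGATGGCggcgtccgcag
Cox8a (complex IV, GRCr8 chr1:213833609-213833638, minus strand, motif on the other strand, -4): cggctattgcgGCCATCTTgacttcctgac
Atp5o (complex V, GRCr8 chr11:44657464-44657493, minus strand, 2): ctgcccgggaaAAGATGGCcgcaccagcaa
The motif holds the letters ATG, and whether a match overlaps a start codon was not looked up. A match is a description of these letters, not a binding site.

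The NRF1 motif, a palindrome, stood in 3 of the 68 subunit windows (4.41%), against 1.86% of the windows of genes above background. All were upstream of the start, and capitals again mark the motif.
Atp5g2 (complex V, GRCr8 chr7:135678255-135678284, minus strand, -56): ggctctagtcGCGCATGCGCagagccttct
Atp5o (complex V, GRCr8 chr11:44657523-44657552, minus strand, -59): acgccgacgcGCGCATGCGCtctggcatca
Ndufa11 (complex I, GRCr8 chr9:1637513-1637542, plus strand, -91): ctgtgcgcatGCGCATGCGCacaggccatg
The Ndufa11 window held 2 overlapping matches, of which one is shown in capitals. The other motifs were CCGGAAGT (ETS/GABP) in 8 windows (11.76% against 8.37% of genes above background), TCAAGGTCA (ERR) in 2 (2.94% against 0.28%), GGGGCGGGG (SP1) in 5 (7.35% against 19.22%) and CCAAT in 22 (32.35% against 37.88%).

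Macrophages were first set against conventional DCs, taken as the mean of cDC1 and cDC2 of the same organ. In thymus macrophages 70 of the 77 subunits were higher and 1 was lower, with a median log2 difference of 3.04, a fold of 8.21. In spleen macrophages 70 were higher and 2 lower, with a median of 2.62, a fold of 6.16. The same 70 subunits were higher in both organs, whose comparisons share no array. The share of all features higher in both was not counted, but cannot exceed the 20.6% higher in spleen macrophages. Of all 93 members, thymus macrophages had 81 higher and 1 lower, where 47.1% of all features were called, 21.6% higher and 25.5% lower. Spleen macrophages had 81 and 2, where 47.1% of features were called, 20.6% higher and 26.5% lower. The median over all features was -0.13 for thymus and -0.20 for spleen macrophages. All 4 macrophage arrays lay above all 12 DC arrays, CD103- cells included, in 70 of the 77 subunits, as they did in 12.8% of all features. In bulk samples, fewer cells of a type and less RNA per cell cannot be told apart.

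**Figure D1:**
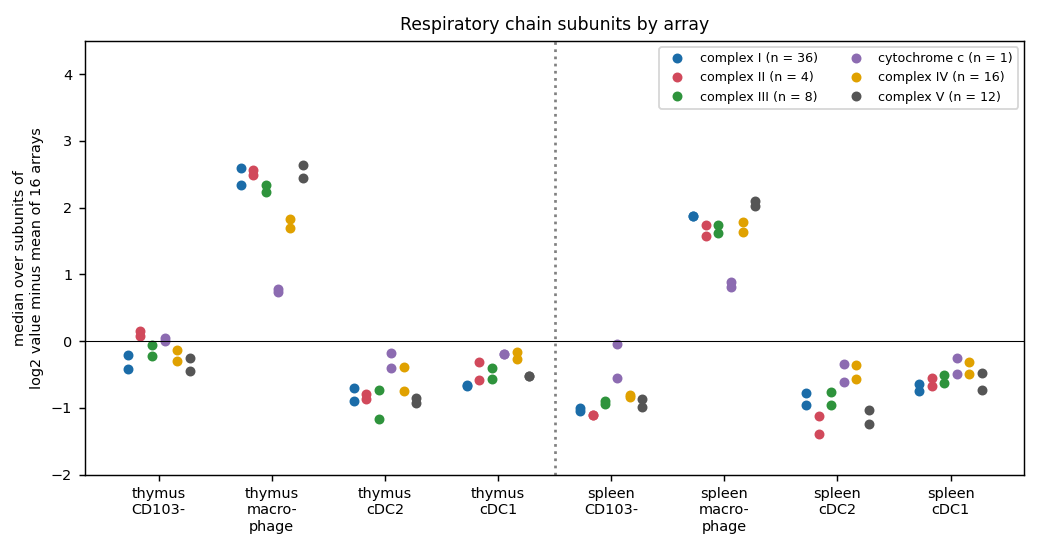
Median over the subunits of each complex of the log2 value minus the gene's mean over 16 arrays, with 1 point per array and complex (n gives the subunits). Macrophage arrays stand above 1.5 for complexes I to V and below 1 for cytochrome c, and every spleen DC array stands below 0.

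Complex I, the NADH dehydrogenase, had 35 of its 36 subunits higher in macrophages of both organs, with a median difference of 3.16 (thymus) and 2.67 (spleen). Of its 7 core subunits, which carry the redox centres, 6 were higher in each organ, and all 29 accessory subunits were. Ndufs7, the core subunit next to the ubiquinone site, read 9.80 and 10.29 on the thymus macrophage arrays, against 4.95 and 5.31 in cDC2 and 5.13 and 5.30 in cDC1. On the spleen arrays it read 9.80 and 9.78 in macrophages, against 5.27 and 4.90 in cDC2 and 5.44 and 5.45 in cDC1. Every DC array was below background and every macrophage array far above it, so the difference was given as a bound, at least 4.25 in the thymus and at least 4.00 in the spleen (limma adjusted p = 1.20e-12 and 4.08e-12).

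Ndufb8, an accessory subunit of the membrane arm, read 14.42 and 14.24 in thymus macrophages, against 9.69 and 9.78 in cDC2 and 9.18 and 9.36 in cDC1. The difference was 4.83 ± 0.21 (SE, limma adjusted p = 1.79e-12) and, in the spleen, 4.14 ± 0.21. Ndufb10 (4.17 ± 0.21), Ndufb6 (4.11 ± 0.24) and, in the spleen, Ndufb7 (3.54 ± 0.24) of the same arm were also higher. The exception in complex I was Ndufs1, the largest core subunit, which holds iron-sulphur clusters. Its thymus arrays read 10.70 and 10.44 in macrophages, against 10.50 and 10.39 in cDC2 and 10.61 and 10.72 in cDC1. The groups overlapped, with a difference of 0.02 (thymus) and -0.27 (spleen), neither called. Over the 8 groups Ndufs1 had a range of group means of 0.88, the smallest of the subunits above background, whose median range was 3.76.

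Complex II is the only complex encoded wholly in the nucleus and is also an enzyme of the citric acid cycle. All 4 subunits were higher in macrophages of both organs, with medians of 3.10 and 2.74. Sdhd, a membrane anchor, read 13.17 and 13.52 in thymus macrophages, against 8.79 and 9.07 in cDC2 and 9.19 and 9.65 in cDC1, a difference of 4.17 ± 0.20 (adjusted p = 6.27e-12). The catalytic subunit Sdha differed less, by 1.88 (thymus) and 1.81 (spleen). The iron-sulphur subunit Sdhb and the anchor Sdhc lay between them. In spleen macrophages Sdhd differed by 3.26 from conventional DCs.

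All 8 subunits of complex III were higher in macrophages, with medians of 3.01 (thymus) and 2.31 (spleen). Uqcr10, a small subunit of this complex, read 13.19 and 12.74 in thymus macrophages, against 7.80 and 8.21 in cDC2 and 8.17 and 8.18 in cDC1, a difference of 4.88 ± 0.23 (adjusted p = 7.73e-12). In the spleen the difference was 4.30 ± 0.23. The core protein Uqcrc2 differed less, by 1.33 and 1.57, as did the Rieske iron-sulphur protein Uqcrfs1, by 1.72 and 1.31. Uqcrh, the hinge protein, read 14.23 and 14.30 in thymus macrophages, against 11.57 and 12.09 in cDC2 and 12.50 and 12.42 in cDC1. Cyc1, the cytochrome c1 of this complex, has a symbol outside the rule and was higher by 3.97 ± 0.20 in the thymus and 3.58 ± 0.20 in the spleen.

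Cycs, the soluble cytochrome c that also takes part in apoptosis, read 10.98 and 11.02 in thymus macrophages, against 9.85 and 10.07 in cDC2 and 10.06 and 10.06 in cDC1. In the spleen it read 11.13 and 11.06 in macrophages, against 9.90 and 9.64 in cDC2 and 9.99 and 9.75 in cDC1. The groups did not overlap, and the differences of 0.99 ± 0.19 (adjusted p = 0.000247) and 1.28 ± 0.19 (adjusted p = 1.88e-05) were among the smallest called. Complex I to V medians were 2.31 to 3.18 in the same comparisons.

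Complex V had all 12 subunits higher in macrophages of both organs, with medians of 3.18 and 2.83. Atp5o, a subunit of the stalk that confers oligomycin sensitivity, read 11.75 and 11.08 in thymus macrophages, against 6.54 and 6.73 in cDC2 and 6.44 and 7.19 in cDC1, a difference of 4.69 ± 0.23 (adjusted p = 1.01e-11). The catalytic-head subunit Atp5a1 differed least, by 1.63 (thymus) and 1.48 (spleen). The genes Atp5g1, Atp5g2 and Atp5g3 encode the same ring protein. Atp5g1 read 14.32 and 14.05 in thymus macrophages, against 9.96 and 9.61 in cDC2 and 10.57 and 11.06 in cDC1. Its range of group means was 5.39, against 4.16 for Atp5g3 and 2.55 for Atp5g2, so the 3 genes varied to different degrees across the groups.

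Complex IV was the one in which members parted by isoform. Of its 16 members, 10 were higher in macrophages of each organ, with medians of 2.42 and 2.38 over all 16. The widely expressed isoforms Cox4i1, Cox5a, Cox5b, Cox6a1, Cox6c, Cox7a2, Cox7b and Cox8a were all higher, and Cox4i1 differed by 3.58 ± 0.22 in the spleen. Cox6c differed least of them, by 1.63 and 1.24, and Cox7a2l, which acts in joining complexes III and IV, was also higher. Ndufa4, named for complex I but now counted in complex IV, read 13.61 and 13.46 in thymus macrophages, against 9.50 and 10.09 in cDC2 and 9.18 and 8.55 in cDC1, a difference of 4.21 ± 0.25 (adjusted p = 1.04e-10). In the spleen it differed by 4.36 ± 0.25. The tissue-restricted isoforms Cox4i2, Cox7b2 and Cox8b and the hypoxia-linked Ndufa4l2 stayed below background on all 16 arrays. Their values lay between 3.09 and 4.86, so no difference could be measured for them.

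Cox6a2, the isoform of heart and skeletal muscle, went the other way. It read 4.84 and 5.07 in thymus macrophages, below background, against 8.75 and 8.36 in cDC2 and 5.90 and 5.99 in cDC1. The thymus cDC2 arrays were apart from all the others, and the macrophage difference from conventional DCs was given as -1.46 or below (adjusted p = 2.39e-07). In the spleen the macrophage and conventional DC means were both below background. Cox8c, the testis isoform in human and rodents, was called lower in spleen macrophages (-0.74 ± 0.24, adjusted p = 0.0187). It read 5.90 and 5.71 in spleen macrophages, close to background, against 6.57 and 6.25 in cDC2 and 7.11 and 6.25 in cDC1.

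The promoter of Cox6a2 is shown because its levels went against the other subunits. The 250 bases before its RefSeq start (GRCr8 chr1:192219717-192219966, minus strand) held 1 match to the motifs searched, a CCAAT motif on the other strand, in capitals.
Cox6a2: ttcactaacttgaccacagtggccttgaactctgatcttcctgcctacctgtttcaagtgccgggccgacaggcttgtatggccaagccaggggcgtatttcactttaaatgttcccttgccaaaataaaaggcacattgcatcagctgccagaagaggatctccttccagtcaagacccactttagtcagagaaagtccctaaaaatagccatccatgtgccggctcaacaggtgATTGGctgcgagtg

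**Figure D2:**
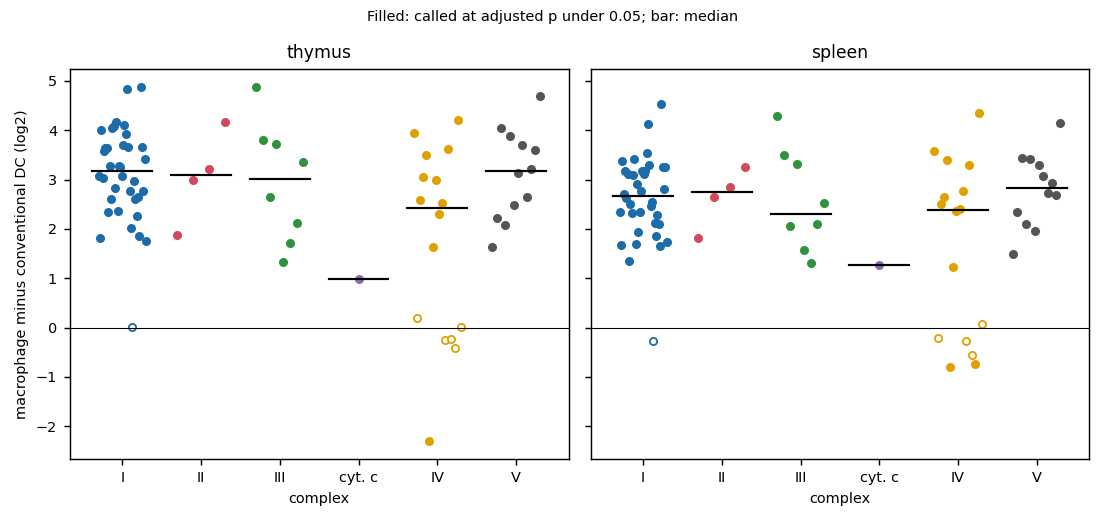
Log2 difference of macrophages minus the mean of cDC2 and cDC1 for each subunit, by complex, in thymus (left) and spleen (right). Filled points were called and bars are medians, which lie between 2.31 and 3.18 for complexes I to V. The open point of complex I is Ndufs1, and the filled points below 0 are Cox6a2 in both organs and Cox8c in the spleen.

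Other nuclear genes of mitochondria were set beside the members. The mitochondrial ribosome list had 63 of 72 members higher and 1 lower in thymus macrophages (median 2.08), and 63 higher and 3 lower in spleen macrophages (median 1.55). Mrpl27 differed by 4.58 (thymus) and 3.84 (spleen), while Mrps2 was lower in both. Of 44 assembly factors of the complexes, thymus macrophages had 27 higher and 3 lower (median 0.81), and spleen macrophages 21 and 6 (0.52). Cox14, which acts in making the complex IV core, was higher by 4.04 and 3.68, and Coa5 was lower by 1.96 and 2.13. The members beginning Ndufaf had 3 of 6 higher in each organ, among them Ndufaf5 and Ndufaf6. A list of 22 genes of import, carriers and matrix often used for mitochondrial mass had 13 higher and 4 lower in the thymus (median 1.06) and 12 and 5 in the spleen (1.06). Timm23, the inner membrane import channel, was higher by 2.83 and 2.41. Citrate synthase, Cs, was lower in both organs (-1.07 and -0.65), as was the channel Vdac1 (-0.96 and -1.30).

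Regulators of mitochondrial biogenesis were split, with 11 of 28 higher and 7 lower in thymus macrophages (median 0.36) and 11 and 6 in spleen macrophages (median 0.12), the lower calls being no more frequent than over all features. Pparg, a nuclear receptor of lipid metabolism, was higher by at least 6.28 and at least 6.57. The mitochondrial transcription elongation factor Tefm was higher by at least 2.14 in the thymus, and the DNA-binding protein Ssbp1 by 2.37. Gabpa, the DNA-binding part of GABP, was lower by 1.44 and 1.36, and the coactivator Pprc1 by 1.39 and 1.00. Among 13 uncoupling and hypoxia genes, thymus macrophages had 7 higher and 2 lower, and spleen macrophages 6 and 2. Ucp3 was higher by at least 3.25 and at least 3.88, and Ucp2 lower by 1.28 and 0.48.

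The macrophage differences moved with gene length on the genome. Over the 11424 genes above background with a RefSeq span, set in 10 bins by length, the shortest bin (79 to 3660 bases) had a median macrophage difference of 0.62 (thymus) and 0.58 (spleen), and the longest bin -0.80 and -0.63. Members were short, with 21 in the shortest bin and 25 in the next (3661 to 7279 bases). After the span trend was removed from every array, an alternative chosen after seeing the data, the subunit median was 2.63 (thymus) and 2.13 (spleen). Of the 73 subunits that could be tested, thymus macrophages then had 69 higher and 2 lower, and spleen ones 70 and 2. Of the 11424 genes, 71.9% and 68.7% were called in either direction. These are genes above background alone, unlike the 47.1% of all features given earlier. As deposited, 4693 of 13882 features above background were higher and 5010 lower in thymus macrophages, and 4519 and 4780 in spleen ones. Cycs lost its call in the thymus (0.27, limma adjusted p = 0.205) and kept it in the spleen (0.66, limma adjusted p = 0.00518). Lists looked at after seeing the data gave medians of 1.24 and 1.10 for cytosolic ribosomal proteins, 1.63 and 1.73 for proteasome subunits and 2.21 and 1.97 for the vacuolar ATPase, in thymus and spleen. The other lists looked at went the other way, with -0.58 and -0.64 for zinc finger genes (Zfp) and -1.38 and -1.58 for histones.

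**Figure D3:**
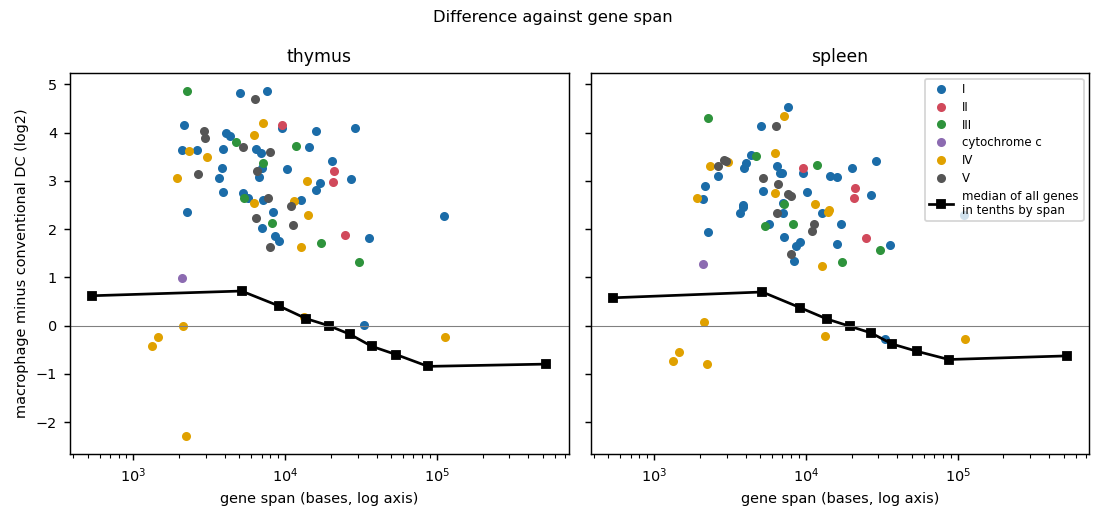
Macrophage minus conventional DC difference (log2) of each subunit against its gene span in bases (log axis), coloured by complex, with the median of all genes above background in 10 bins by span as black squares. The squares stand at 0.62 in the shortest and -0.80 in the longest bin for the thymus, and at 0.58 and -0.63 for the spleen, and most subunits lie well above them.

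Markers of other cells moved with the macrophage arrays too. Of 8 neutrophil markers, 6 were higher in thymus macrophages and 5 in spleen macrophages. Their mean log2 level over the list was 10.59 to 10.87 in thymus macrophages, against 4.36 to 4.47 in thymus conventional DCs, and 10.38 to 10.53 in spleen macrophages, against 4.35 to 4.66 in spleen conventional DCs. S100a8 and S100a9 led them. The granule genes Camp and Np4 averaged 13.94 and 15.69 in thymus macrophages, and 11.9 and 12.73 in spleen macrophages. The granule genes Elane and Ltf were below background in all these groups. Of 9 erythroid markers, 8 were higher in spleen macrophages, with list means of 10.66 to 11.02 against 5.00 to 5.33 in spleen conventional DCs. In thymus macrophages 4 were higher and 1 lower, with list means of 5.35 to 5.73 against 4.84 to 5.02. All 5 NK markers and 4 of 6 B cell markers were also higher in spleen macrophages, the B cell list with means of 9.06 to 9.60 against 6.86 to 8.08, while all 6 B cell markers were lower in thymus macrophages. Platelet markers were higher for 2 of 4 in the thymus and 3 of 4 in the spleen. Of 27 cell cycle genes, 20 were lower and 3 higher in thymus macrophages, and 16 lower and 1 higher in spleen ones. The part of neutrophil, erythroid, NK, B cell, platelet and cell cycle genes in the subunit differences was not tested.

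CD103- cells stood with the DCs in their subunit levels. Against macrophages of the same organ, 70 of 77 subunits were lower and 1 higher in each organ, with medians of -2.65 (thymus) and -2.86 (spleen). Over the 93 members, 80 were lower and 1 higher in the thymus (37.9% of all features called, 19.5% higher and 18.4% lower), and spleen CD103- cells had 83 lower and 1 higher (40.2% called, 21.1% higher and 19.1% lower). These comparisons share the macrophage arrays with those above. Neutrophil markers were lower for 5 of 8 in thymus and 6 of 8 in spleen CD103- cells, and erythroid ones for 4 and 8 of 9. Their part was not tested. Atp5g1 read 8.83 and 8.77 in spleen CD103- cells, against 13.57 and 13.86 in spleen macrophages, a difference of -4.92 ± 0.23 (adjusted p = 2.38e-11). Cycs differed by -0.73 (thymus) and -1.15 (spleen). Cox6a2 was the one higher member, by at least 0.25 and at least 0.84.

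Against cDC2 of the same organ, CD103- cells of the thymus had 15 of 77 subunits higher and 1 lower, with a median of 0.50. Of the 93 members 16 were higher and 1 lower, where 10.3% of all features were called, 5.34% higher and 4.91% lower. Complex III had 3 of 8 higher (median 0.84), complex II 2 of 4 (0.86), complex V 3 of 12 (0.64), complex I 5 of 36 (0.44) and complex IV 2 of 16 (-0.04). The 16 of complex IV include the isoforms below background on all arrays. Without these, Cox6a2, Cox8c and Cox7a2l, 9 subunits remain. Relative to each gene's mean over 16 arrays, their medians were -0.44 and -0.37 in CD103- cells, against -0.93 and -0.83 in cDC2. Ndufa8, an accessory subunit of complex I, read 7.34 and 7.71 in CD103- cells, against 6.15 and 6.20 in cDC2, a difference of 1.35 ± 0.22 (adjusted p = 0.000287). Sdhb read 12.60 and 12.73, against 11.23 and 11.43 in cDC2, a difference of 1.34 ± 0.21 (adjusted p = 0.000206). In both genes the arrays of the groups did not overlap. Next in size were Cox8a (1.15 ± 0.23), Uqcr11 (0.98 ± 0.23), Uqcr10 (0.98 ± 0.27), Atp5h (0.92 ± 0.25) and Sdhd (0.90 ± 0.23), and Cyc1 outside the rule was higher by 0.94 ± 0.23.

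Cox6a2 was the one lower member in thymus CD103- cells. It read 6.19 and 5.88 there, against 8.75 and 8.36 in cDC2, a difference of -2.52 ± 0.28 (adjusted p = 5.58e-06). Of the mitochondrial ribosome list 1 of 72 genes (Mrpl42) was called higher and 0 lower by limma, with 14 higher and 0 lower at an unadjusted p under 0.05 and a median of 0.24. Of 44 assembly factors 1 (Uqcc2) was called higher, with 2 higher and 1 lower unadjusted. Of 22 mass genes 0 were called, with 2 higher and 0 lower unadjusted. At that unadjusted threshold 2303 of all 23188 features were higher and 2467 lower. The assembly and mass counts were not above these shares. Of 28 biogenesis regulators 2 were called higher and 0 lower, with a list median of -0.045. Among them Ppargc1b, a coactivator of mitochondrial biogenesis, was higher by 2.08 ± 0.33 (limma adjusted p = 0.000265). The count of members rested on single arrays. It was 5 without thymus cDC2 replicate 1, 10 without cDC2 replicate 2, and 6 without CD103- replicate 2, against 17 with all arrays. Cell cycle genes moved with the comparison, with 7 of 27 lower and none higher. So did dissociation stress genes (5 of 9 higher, list means 15.78 to 16.18 against 14.86 to 15.17), and so did plasmacytoid DC markers (3 of 6 higher, 8.79 to 9.09 against 7.76 to 7.83). Their part was not tested.

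In the spleen the same comparison called 1 member higher and 3 lower of 93, where 9.02% of all features were called, 4.81% higher and 4.21% lower, and the subunit median was -0.03. Atp5o read 6.82 and 7.01 in CD103- cells, against 5.98 and 6.05 in cDC2 (0.90 ± 0.27, adjusted p = 0.0402). Cox7a2, the widely expressed isoform, read 11.34 and 11.21 against 12.32 and 12.29 (-1.03 ± 0.20, adjusted p = 0.00201). Its near-copy Cox7a2l2 (-0.99) and the complex I flavoprotein-arm subunit Ndufv3 (-0.80) were also lower. Probes of Cox7a2 and Cox7a2l2 may share RNA, as may those of Ndufv3 and Ndufv3-ps1, and such pairs are no separate evidence. Of the 28 biogenesis regulators 1 was called higher and 2 lower, with a list median of -0.15. The higher one was again Ppargc1b (1.36 ± 0.33). Of 27 cell cycle genes 15 were lower. Plasmacytoid DC markers were higher for 4 of 6 (list means 10.11 to 10.53 against 8.25 to 8.70), and their part was not tested. The count was 1 without CD103- replicate 1 and 2 without cDC2 replicate 2, against 4.

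The difference between the organs was tested directly. For CD103- cells minus cDC2, thymus minus spleen, 2 members were higher and 1 lower, where 3.55% of all features were called, 1.43% higher and 2.12% lower. Cox6a2 differed by -3.29 ± 0.40 (adjusted p = 6.08e-05), where spleen CD103- cells read 7.06 and 6.20, against 6.18 and 5.54 in spleen cDC2. Atp5g1 differed by 1.21 ± 0.32 (adjusted p = 0.0452). With the other choice of feature for genes that have several, the count was 2 in place of 3. It was 1 without thymus CD103- replicate 2, spleen CD103- replicate 2, either thymus cDC2 array or spleen cDC2 replicate 1, and 5 without spleen cDC2 replicate 2.

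Between conventional DC subsets the calls fell on single members. For cDC2 minus cDC1, the subunit median was -0.175 in the thymus and -0.35 in the spleen, against -0.005 over all features in both. Below 0 were 54 and 58 of the 77 subunits, against 11708 and 11715 of all 23188 features. The thymus had 6 members called higher and 8 lower, where 13.7% of all features were called, 6.75% higher and 6.93% lower. The spleen had 1 higher and 9 lower, where 16.1% were called, 7.86% higher and 8.21% lower. The members' shares called were near these in the thymus and below them in the spleen. The counts of calls are no result about the members as a group. Atp5g1 was lower in both organs. It read 9.96 and 9.61 in thymus cDC2, against 10.57 and 11.06 in cDC1 (-1.03 ± 0.23, adjusted p = 0.00396), and 9.37 and 9.45 in spleen cDC2, against 11.26 and 11.09 in cDC1 (-1.77 ± 0.23, adjusted p = 1.54e-05). Ndufa5, Sdhb, Cox8a and Atp5l were lower in both organs too, by 0.78 to 0.97. These 5 were 5 of the 7 subunits lower in the thymus and 5 of the 8 lower in the spleen. Without the share of all features lower in both organs, that overlap too is no result about the members as a group. Atp5s, a coupling factor outside the core enzyme, differed by -1.25 or below in thymus cDC2 and by -2.21 or below in spleen cDC2.

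In the other direction, thymus cDC2 were higher in Cox6a2 (2.61 ± 0.28, adjusted p = 1.93e-06), Ndufa4 (0.93 ± 0.28), Ndufv3 (0.74 ± 0.20) and Atp5a1 (0.74 ± 0.23). Ndufaf7, a methyltransferase that assembles complex I, was higher in cDC2 by at least 0.69 in the thymus and at least 0.58 in the spleen. The B cell list had means of 7.04 to 7.22 in thymus cDC2, against 8.97 to 9.72 in thymus cDC1, and in spleen cDC2 4 of 6 plasmacytoid DC markers were higher and 1 lower (list means 8.25 to 8.70 against 6.88 to 7.38). Cell cycle genes were higher in cDC2 for 9 of 27 in thymus and 13 of 27 in spleen. Their part was not tested. In the thymus the count was 8 and 4 without either cDC1 array and 7 and 5 without either cDC2 array, against 14. In the spleen it was 5 without cDC1 replicate 1 and 6 without cDC2 replicate 2, against 10.

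**Figure D4:**
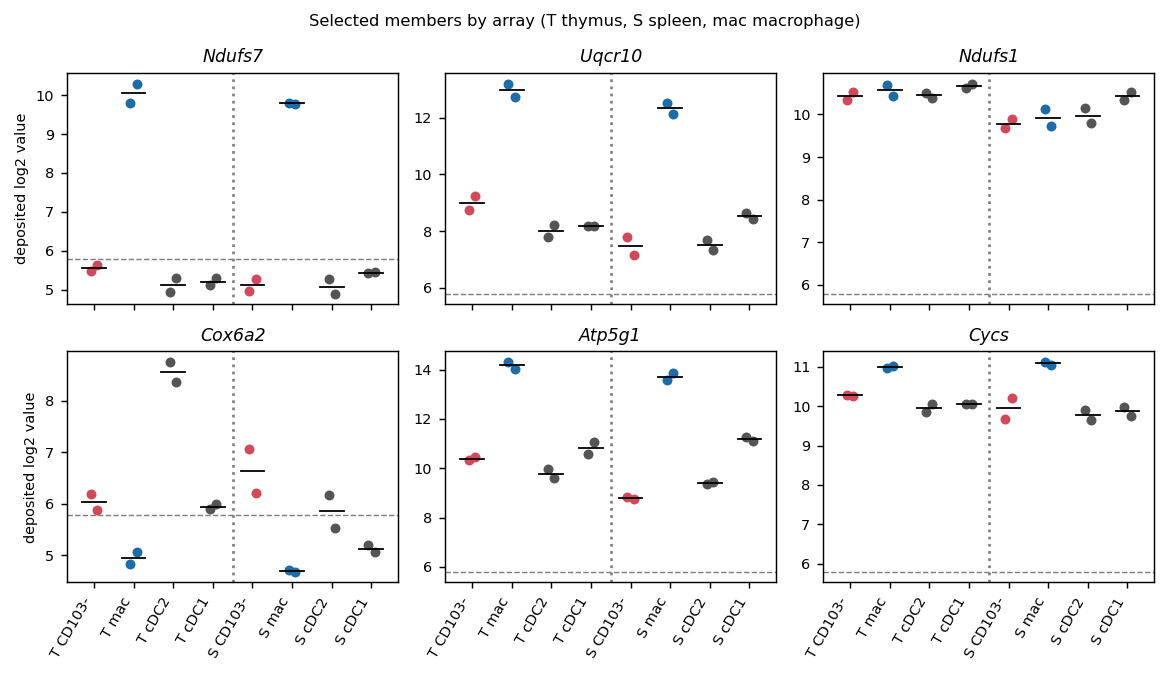
Deposited log2 value on each array (points, 2 per group) and group mean (bar) of 6 members, with the dashed line at background, 5.79. Ndufs7 is above background in macrophages alone, Cox6a2 is highest in thymus cDC2 at 8.36 and 8.75, Atp5g1 is lowest in spleen CD103- cells, and Ndufs1 has group means within 0.88 of each other.

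Between the organs, most differences were in CD103- cells. Thymus CD103- cells had 31 of 77 subunits higher and 0 lower than spleen CD103- cells by limma (1 lower at an unadjusted p under 0.05), with a median of 0.65, and 35 of 93 members, where 12.4% of all features were called, 7.12% higher and 5.27% lower. Atp5g1 read 10.32 and 10.45 in thymus CD103- cells, against 8.83 and 8.77 in the spleen (1.59 ± 0.23, adjusted p = 0.000106). Uqcr10 (1.50 ± 0.27), Sdhc (1.45 ± 0.27), Sdhb (1.43 ± 0.21), Atp5g3 (1.40 ± 0.24) and Ndufv3 (1.37 ± 0.20) followed. Among the mass genes 7 of 22 were higher and 0 lower, with Tomm40 at 1.31. The mitochondrial ribosome had 6 of 72 higher and 0 lower, and the assembly factors 5 of 44 and 0. Of 28 biogenesis regulators 1 was higher and 1 lower, and of 13 uncoupling and hypoxia genes 0 were higher and 2 lower. The count was 12 without thymus CD103- replicate 2 and 20 without spleen CD103- replicate 2. T cell and thymocyte markers moved with the organ, with 5 of 12 higher and list means of 7.88 to 8.19 in the thymus against 6.65 in the spleen, and 6 of 27 cell cycle genes were higher. Plasmacytoid DC markers were lower for 3 of 6, with list means of 8.79 to 9.09 in thymus against 10.11 to 10.53 in spleen CD103- cells. Their part was not tested.

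Thymus macrophages had 13 of 77 subunits higher than spleen macrophages and none lower, with a median of 0.46, and 15 of 93 members, where 13.7% of all features were called, 6.21% higher and 7.53% lower. Ndufa2 read 10.14 and 10.05 in the thymus, against 8.95 and 8.48 in the spleen (1.38 ± 0.33, adjusted p = 0.00823). Ndufab1, which is also the mitochondrial acyl carrier protein, read 11.74 and 11.48 against 10.45 and 10.14 (1.32 ± 0.22, adjusted p = 0.000362). No subunit of complexes IV and V was called by limma, and 1 of 16 and 4 of 12 were higher at an unadjusted p under 0.05. At that threshold 2773 of all 23188 features were higher, a larger share than that of complex IV. Of the 13 subunits, 11 were also among the 31 higher in thymus CD103- cells, a comparison that shares no array with this one. The share of all features higher in both is not given here, so this overlap is no result about the members. Erythroid markers had list means of 5.35 to 5.73 in thymus macrophages and 10.66 to 11.02 in spleen macrophages, with 7 of 9 lower in the thymus, and 8 of 12 T cell and thymocyte markers were higher. All 5 NK and 5 of 6 B cell markers were lower in the thymus. Of 8 neutrophil markers 4 were higher in the thymus, led by Np4 (2.96), and Csf3r was lower (-5.68). Their part was not tested. The count was 4 to 7 without any 1 of the 4 macrophage arrays.

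In conventional DCs the share of members called between the organs was below that of all features. In cDC2, 6 members were higher in the thymus and none lower, where 14.6% of all features were called, 7.99% higher and 6.6% lower. They were Cox6a2 (8.75 and 8.36 in the thymus, against 6.18 and 5.54 in the spleen, 2.70 ± 0.28), Ndufv3-ps1 (2.04 ± 0.24), Ndufc2 (1.36 ± 0.26), Ndufv3 (1.06 ± 0.20), Atp5b (0.83 ± 0.20) and Ndufc1 (0.65 ± 0.21). In cDC1 none was higher and 2 were lower, Ndufb10 (-0.88 ± 0.24) and Atp5s (-0.97 ± 0.29), where 12.1% were called, 6.69% higher and 5.38% lower. That count was 0 or 1 without any 1 of the 4 cDC1 arrays. In thymus cDC2 8 of 12 T cell and thymocyte markers were higher and 6 of 9 dissociation stress genes lower. In thymus cDC1 9 of 12 T cell and thymocyte and 5 of 6 B cell markers were higher and 5 of 9 stress genes lower. Their part was not tested. Whether macrophages exceeded conventional DCs more in the thymus was tested as an interaction, in which 6 members were higher and 1 lower, where 12.4% of all features were called, 4.8% higher and 7.62% lower. Ndufb10 differed by 1.27 ± 0.30 (adjusted p = 0.00716) and Ndufab1 by 1.12 ± 0.27 (adjusted p = 0.00917). Cox6a2 was the lower one and is given no size, its macrophage means being below background in both organs. The count was 3 and 2 without either spleen macrophage array, against 7.

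Across the 8 group means, most subunits were highest in macrophages, while their order among the DC groups varied. Of the 73 subunits above background in at least 1 group, 67 were highest in thymus macrophages, 3 in spleen macrophages and 3 in another group. Among the 6 DC groups, 47 were highest in thymus CD103- cells, while 29 were lowest in spleen CD103- cells and 22 in spleen cDC2. The median range of a subunit was 0.98 over the 6 DC groups. Pearson's r of a subunit with the median of the others over the 8 group means was above 0.9 for 66 of the 73, as a description of 8 points whose spread is mostly that between macrophages and DCs. Ndufa9 was the nearest to that median (0.999). The farthest were Cox8c (-0.81), Cox6a2 (-0.60) and Ndufs1 (0.12), and the assembly factor Ndufaf4 among the other members (-0.88).

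**Figure D5:**
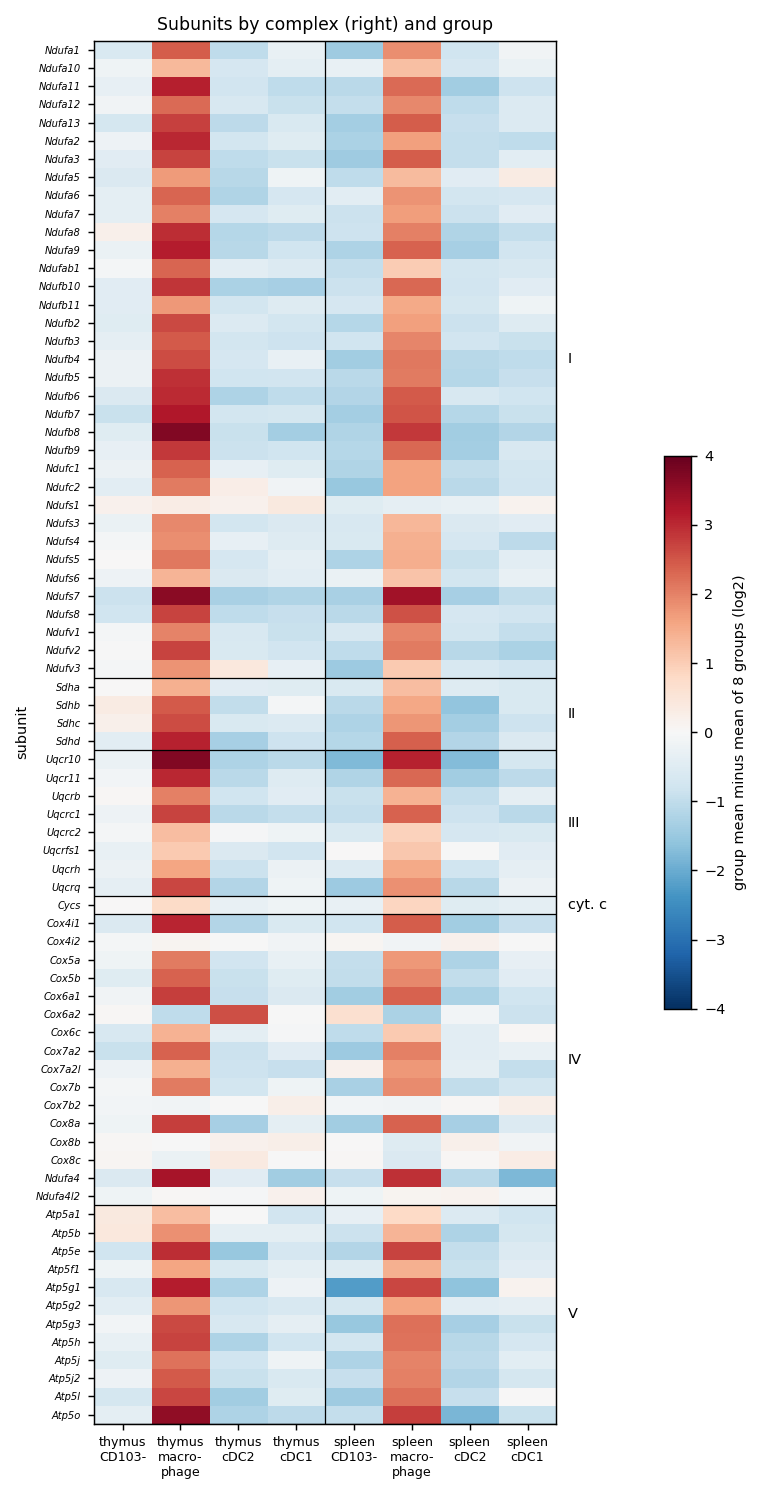
Group mean minus the mean of the 8 groups (log2, red higher, blue lower) for the subunits reported by name, ordered by complex, with thymus groups left and spleen groups right. Both macrophage columns are red in most rows, the Cox6a2 row is reddest in thymus cDC2, and the rows of Cox4i2, Cox7b2, Cox8b and Ndufa4l2 are below background throughout.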

How the data were processed

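The deposited values were log2 signals of transcript clusters on 16 rat Clariom S arrays, made with the Transcriptome Analysis Console per the submitters' processing notes. Normalization and background correction are not given in the sources used here. Both deposited tables held the same values (largest difference 0). Members and lists were chosen with earlier results of these data known. For symbols with several clusters the one with the highest mean stood for the gene, which applied to 3 members.

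Group means (8) were estimated from the 16 arrays together by limma 3.58.1 under R 4.3.3 (lmFit, then eBayes, with 8 residual degrees of freedom and a prior of 9.21), with Benjamini-Hochberg adjustment over 23188 clusters within each of 14 contrasts. A difference from a group mean below 5.79 is given as a bound, the distance of the other group from 5.79. The number of arrays limits the precision. Named members were Cycs, the Sdh genes, the isoform families, and called members with non-overlapping arrays and the largest differences (up to 8 per direction in the comparisons of CD103- cells with cDC2 and of macrophages with conventional DCs, 4 in others), those with the 10 largest and 3 smallest ranges, and up to 3 per direction of each list. Deviations of same-numbered replicates correlated above 0.1 in 4 of 28 pairs of groups, all between DC groups of one organ: the 3 spleen pairs (0.155, 0.176 and 0.182) and thymus CD103- with cDC2 (0.166). With 2 replicates a group and no label for a shared animal or day, the numbers were not taken as pairs, and the block was an alternative. Of 93 symbols 91 matched RefSeq, 77 of them as current symbols. One member, though counted, is not reported by name here. The steps were tested on simulated data. Alternatives were array weights, only the arrays compared, a filter on dim clusters, median centring, quantile normalization, the replicate block, eBayes with trend and robust, a 2-fold minimum, the cluster of largest variance, leaving out assembly factors, leaving out each array, and removal of the gene span trend.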

Additional observations from a re-analysis of the deposited data

Results flagged for a closer look

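The following members differed between the organs by the interaction test. For CD103- cells minus cDC2, thymus minus spleen, Cox6a2 differed by -3.29 and Atp5g1 by 1.21. The difference of Atp5g1 was 0.60 in the thymus and -0.61 in the spleen.

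For macrophages minus conventional DCs, thymus minus spleen, Ndufb10 differed by 1.27, Ndufab1 by 1.12, Ndufa5 by 1.01, Ndufa8 by 0.96 and Sdhd by 0.91. All of these were higher in macrophages of both organs. Groups of 2 arrays allow no test for an outlying array.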

How the results depend on the processing

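The counts of macrophages against conventional DCs and of CD103- cells against macrophages stayed within 1.5 times of the counts given under every alternative run. Others moved. Array weights gave 1 member for cDC1 between the organs. With only the arrays compared, the counts were 11 for thymus CD103- cells against cDC2, 2 for the spleen, 1 for cDC1 between the organs and 1 for the interaction of CD103- cells. That interaction gave 5 with the dim filter and 6 with trend and robust. A 2-fold minimum left 4 and 1 members for CD103- cells against cDC2 in thymus and spleen, and 5 and 4 for cDC2 against cDC1. It left 0 for cDC1, 20 for CD103- cells and 3 for macrophages between the organs, and 4 for the macrophage interaction. Leaving out one array in turn gave 5 to 12 members for thymus CD103- cells against cDC2 and 1 to 5 for spleen ones, 4 to 8 (thymus) and 5 to 13 (spleen) for cDC2 against cDC1, 0 to 1 for cDC1, 12 to 32 for CD103- cells and 4 to 7 for macrophages between the organs, 1 to 5 for the interaction of CD103- cells and 2 to 9 for that of macrophages. The cause was not tested. The lone array of a group was assumed to vary like the other groups.

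For 160 named differences, 2420 values over the alternatives kept direction and call, 102 lost the call and 12 gained it. With the replicate block 158 of 160 named calls were the same and 2 were gained, and the counts were 18 and 5 for CD103- cells against cDC2 in thymus and spleen and 14 and 11 for cDC2 against cDC1. Members below background have no measurable difference.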
